A study of Mus musculus with 56 samples.

Results

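The mitochondrial carrier family Slc25 was followed in visceral adipose tissue (VAT) of mice fed at opposite times of day. Members were the rows of the deposited VAT table whose Ensembl identifier belongs to a protein-coding gene with the symbol Slc25a followed by a number. There were 44 members among the 25939 genes of the table, and 39 of them reached the mean of at least 10 reads per library that was required for testing, as did 17287 genes in all. The other 5, Slc25a2, Slc25a18, Slc25a21, Slc25a31 and Slc25a41, are described by their levels only, and 2 further genes with such symbols are not analysed here. All animals were C57BL/6J female mice that were 9 weeks old, kept on 12 h of light and 12 h of dark with normal chow. For 7 days they could eat either in the day only (daytime-restricted feeding, DRF) or in the night only (nighttime-restricted feeding, NRF), which is the natural feeding time of mice and the reference here. Polyadenylated RNA of VAT was sequenced in 56 libraries, 4 for each regimen at each of 7 zeitgeber times (ZT) from ZT0 (lights on) to ZT24 at intervals of 4 h. ZT12 is lights off, and ZT0 and ZT24 are separate groups of libraries. The labels number the 4 libraries of a group without saying that they are different mice, so p-values measure the spread between these libraries.

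Carriers of this family are small proteins of the inner mitochondrial membrane that swap or import the small molecules on which mitochondrial metabolism runs. They carry ADP and ATP, phosphate, the acids of the citrate cycle, amino acids, acylcarnitines, metals, nucleotides and the cofactors that enzymes inside the organelle need but mostly cannot make there. In fat tissue such carriers stand between fatty acid synthesis in the cytosol, which needs carbon and reducing power exported from mitochondria, and fatty acid oxidation in the matrix, which needs imported acyl groups. Feeding and fasting alternate between these states, and the circadian clock times both, so the question was whether carrier mRNAs follow the time of day, the time of food or neither.

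Reads on genes numbered 27916675 to 37531276 per library, and the median library held 31661892 reads in the DRF arm and 32696595 in the NRF arm. Levels of a single gene are given in CPM, its reads scaled to a common library size. Levels of different genes are compared only as RPKM, which is CPM per kilobase of exon. On the second principal component, which held 15.8% of the variance, 2 DRF libraries stood far out, ZT8 replicate 1 and ZT0 replicate 4, at 10.8 and 9.63 median absolute deviations from the median; they are called the pair below. Of 6 listed markers of uterine or oviduct epithelium, 5 were found in the table. Their summed level was 378 and 681 CPM in the pair, at most 42.03 CPM in the other DRF libraries and 9.13 to 19.98 CPM under NRF. The summed level of 5 adipocyte markers was 8387 and 12700 CPM in the pair, against at least 14830 CPM in every NRF library. Adipocyte markers were thus present throughout, as the tissue label says. Another library, NRF ZT24 replicate 4, held 1539 CPM of 4 liver markers, against at most 75.2 CPM in any other. Without it, the members called for rhythm under either regimen, for a rhythm difference at the same feeding time and for the mean were the same as with it, and 1, Slc25a47, was added to those that differed at the same clock time. Other markers moved with regimen too: 4 of 5 red cell markers were higher and 2 of 3 macrophage markers lower under DRF, in ranges of 190 to 786 CPM and 135 to 235 CPM against 159 to 678 CPM and 155 to 319 CPM under NRF. Of the 5 adipocyte markers, 1 was higher and 1 lower under DRF, and their sum had a median of 22110 CPM against 19170 CPM under NRF. In the brown adipocyte and liver lists 1 marker each was higher under DRF, and 1 of 3 mesothelial markers was lower. The part of these cells in the differences below was not tested. In whole tissue, fewer cells of a type and less RNA per cell cannot be told apart.

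Slc25a5, Slc25a10, Slc25a4, Slc25a3 and Slc25a39 had the highest mean levels of the family. Slc25a5, the adenine nucleotide translocase that is widespread outside muscle, averaged 252 RPKM over the 56 libraries (SD 37.5, range 187 to 346). Slc25a10, the dicarboxylate carrier that exchanges malate and succinate for phosphate and is known to be abundant in white fat, averaged 188 RPKM (SD 61.5), and its range of 37.7 to 313 RPKM was the wider. Slc25a4, the adenine nucleotide translocase typical of heart and muscle, averaged 118 RPKM (SD 14.4). Slc25a3, the phosphate carrier, averaged 82.1 RPKM (SD 9.79), and Slc25a39, which brings glutathione into mitochondria, averaged 70.9 RPKM (SD 11.6). The range of Slc25a10 overlapped those of both translocases, whereas Slc25a4, at most 160 RPKM, stayed below Slc25a5 in every library. Slc25a5 has 1 annotated pseudogene named after it, and the share of its reads that the counting gave to either was not tested.

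**Figure D1:**
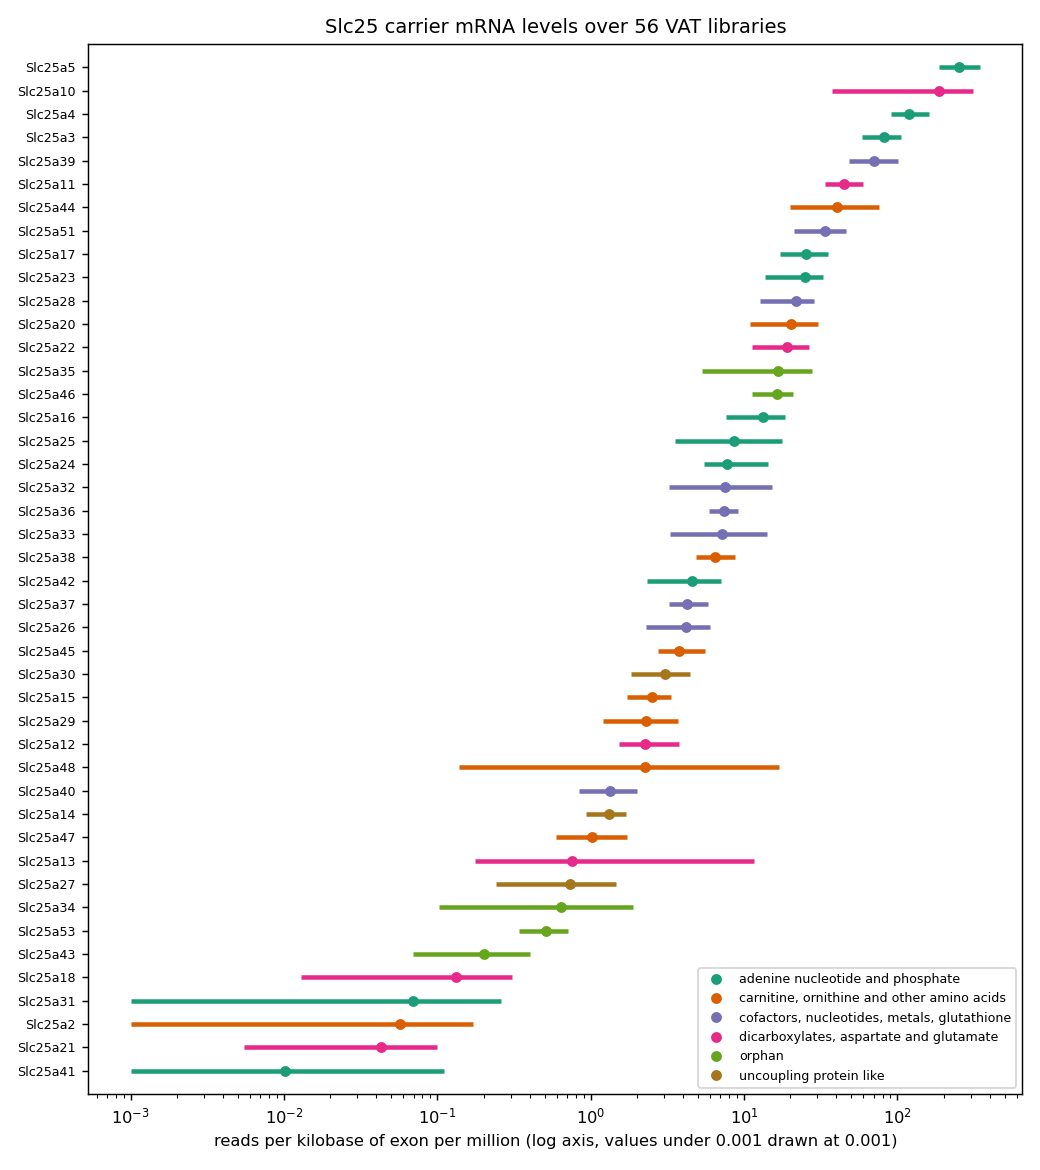
Level of each Slc25 member in RPKM (CPM per kilobase of exon), on a log axis, over the 56 VAT libraries. The point is the mean, the bar runs from the lowest to the highest library, and the colour gives the kind of cargo; Slc25a5 is at the top with 252 RPKM and the 5 members at the bottom were too low to test.

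Below these came the 2-oxoglutarate carrier Slc25a11 at 45.03 RPKM, the branched-chain amino acid carrier Slc25a44 at 40.7 RPKM and the NAD+ carrier Slc25a51 at 33.6 RPKM. Slc25a20, which exchanges acylcarnitine for carnitine and so feeds fatty acid oxidation, averaged 20.4 RPKM. The aspartate and glutamate carriers of the malate-aspartate shuttle were low, at 2.27 RPKM for Slc25a12 and 0.756 RPKM for Slc25a13. For Slc25a13 the mean was set by the pair of DRF libraries, which held 44.02 and 22.3 CPM, whereas the other 54 libraries held 0.667 to 3.54 CPM, the highest of them being the library with liver markers. The lowest member was Slc25a41, with 0 to 6 reads per library. The glutamate carrier Slc25a18 had 1 to 23 reads, and the testis-type translocase Slc25a31 had 0 to 22 reads.

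Rhythm was tested within each regimen on its 28 libraries, by combining the JTK_CYCLE and Lomb-Scargle tests for a period of 24 h, and a Benjamini-Hochberg adjusted p under 0.05 over all 17287 genes counted as rhythmic. Under NRF, 15 of 39 members (38.5%) were rhythmic, beside 37.3% of all genes tested. Under DRF, 7 members (17.9%) were rhythmic, beside 20.2% of all genes. The family was thus near the background under each regimen. The 15 members rhythmic under NRF were Slc25a5, Slc25a16, Slc25a22, Slc25a23, Slc25a32, Slc25a33, Slc25a34, Slc25a36, Slc25a38, Slc25a42, Slc25a44, Slc25a45, Slc25a48, Slc25a51 and Slc25a53. With a replicate left out 10 to 12 passed, where the call of Slc25a5 was lost in all 4 fits and those of Slc25a23 and Slc25a45 in 3 of 4, and the limma cosine did not call Slc25a5 (adjusted p 0.0981). Fitted peaks of the 15 were spread, with 1 between ZT0 and ZT6, 5 between ZT6 and ZT12, 5 between ZT12 and ZT18 and 4 between ZT18 and ZT24. The 7 rhythmic under DRF were Slc25a14, Slc25a26, Slc25a28, Slc25a34, Slc25a36, Slc25a40 and Slc25a53, so 3 members passed under both regimens (7.69%, beside 12.7% of all genes), 12 under NRF only (30.8%, beside 24.6%) and 4 under DRF only (10.3%, beside 7.48%). The DRF count leaned on the pair of libraries: without them 13 members were rhythmic under DRF, beside 26.8% of all genes, and the 6 gained were Slc25a10, Slc25a16, Slc25a25, Slc25a32, Slc25a33 and Slc25a51. With any one replicate number left out of all groups 0 to 3 passed, and without replicate 3, where none did after adjustment, 6 had an unadjusted p under 0.05. A 24-h cosine fitted in limma called 21 members under NRF (53.8%, beside 49.5% of all genes) and 17 under DRF (43.6%, beside 40.1%), so the gap between the regimens was narrower with that test.

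The groups by cargo are to be read beside the shares over all genes, 37.3% under NRF and 20.2% under DRF, or 49.5% and 40.1% by the limma cosine. The carriers of cofactors, nucleotides, metals and glutathione held 4 of 9 members rhythmic under NRF and 4 of 9 under DRF; 5 and 6 passed before adjustment, and the limma cosine called 7 under each. Of the 4 under DRF, Slc25a36 and Slc25a40 were lost in all 4 fits that left out a replicate. Without the pair, where the share over all genes under DRF was 26.8%, Slc25a32, Slc25a33 and Slc25a51 were called as well. Of the 9 tested carriers of adenine nucleotides, phosphate and coenzyme A, 4 were rhythmic under NRF and 0 under DRF. Before adjustment 0 passed under DRF as well, while the limma cosine called 4 under each regimen. Without the pair, the combined test called Slc25a16 and Slc25a25 under DRF (adjusted p 0.00682 and 0.0278). The 4 NRF calls of the combined test were all lost without replicate 3, and only that of Slc25a42 was kept without replicate 4. Of the 8 tested carriers grouped with carnitine, ornithine and other amino acids, 4 were rhythmic under NRF and 0 under DRF. Before adjustment 1 passed under DRF, and the limma cosine called 5 under NRF and 3 under DRF. Among the 5 tested carriers of dicarboxylates, aspartate and glutamate only the glutamate carrier Slc25a22 was rhythmic under NRF by the combined test, while the limma cosine called 2, with Slc25a10 (adjusted p 0.00188) beside it. In this group 0 were rhythmic under DRF, also before adjustment of the combined test, where the limma cosine also called 0 and gave Slc25a12 alone an unadjusted p under 0.05 (0.0220, adjusted 0.0539). Without the pair, the combined test called Slc25a10 under DRF (adjusted p 0.0359). Of the 3 uncoupling protein-like members only Slc25a14 was rhythmic, under DRF alone (adjusted p 0.0354), a call lost in all 4 fits that left out a replicate, without the ZT24 libraries and without the filter on low counts. Among them 0 were rhythmic under NRF, also before adjustment of the combined test, where the limma cosine also called 0 and gave Slc25a14 alone an unadjusted p under 0.05 (0.0358, adjusted 0.0679). A member rhythmic under a single regimen is not thereby shown to differ between regimens, and that difference was tested as such.

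At the same clock time, the rhythm of 22 of 39 members (56.4%) differed between DRF and NRF, beside 51.2% of all genes. This was the limma test of the 2 terms by which the 24-h cosine and sine differ between regimens, on log2(CPM + 1). The cofactor and metal group held 7 of its 9 members among them, the carnitine and amino acid group 6 of 8, the adenine nucleotide group 4 of 9 and the dicarboxylate group 2 of 5. The uncoupling protein-like group held 1 of 3 and the group without an assigned cargo 2 of 5. Without replicate 1, Slc25a14, Slc25a15, Slc25a20, Slc25a22 and Slc25a45 were not called. Without replicate 2, Slc25a15, Slc25a17, Slc25a20 and Slc25a38 were not called. Without the pair the count was 29, beside 57.4% of all genes, and the 22 members were all kept. Fitted peaks of the 22 moved by 4.46 to 11.5 h, with a median of 9.17 h. A move of 8 h or more was seen in 16 of the 22 (72.7%), beside 73.7% of the 8848 genes with such a difference. These moves describe genes that were chosen for a difference in rhythm, and some of the peaks belong to fits without a called rhythm. Under DRF, neither the combined test nor the limma cosine called Slc25a10, Slc25a15, Slc25a17, Slc25a22, Slc25a23, Slc25a38 or Slc25a45. Under NRF, neither called Slc25a14, Slc25a15 or Slc25a20. The limma cosine alone called Slc25a16, Slc25a20, Slc25a32, Slc25a33, Slc25a42, Slc25a44, Slc25a48 and Slc25a51 under DRF. It alone called Slc25a10, Slc25a17, Slc25a26, Slc25a28 and Slc25a40 under NRF. Shifts given for any of these members are moves of fitted peaks, outside the phase comparison of members rhythmic under both regimens.

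**Figure D2:**
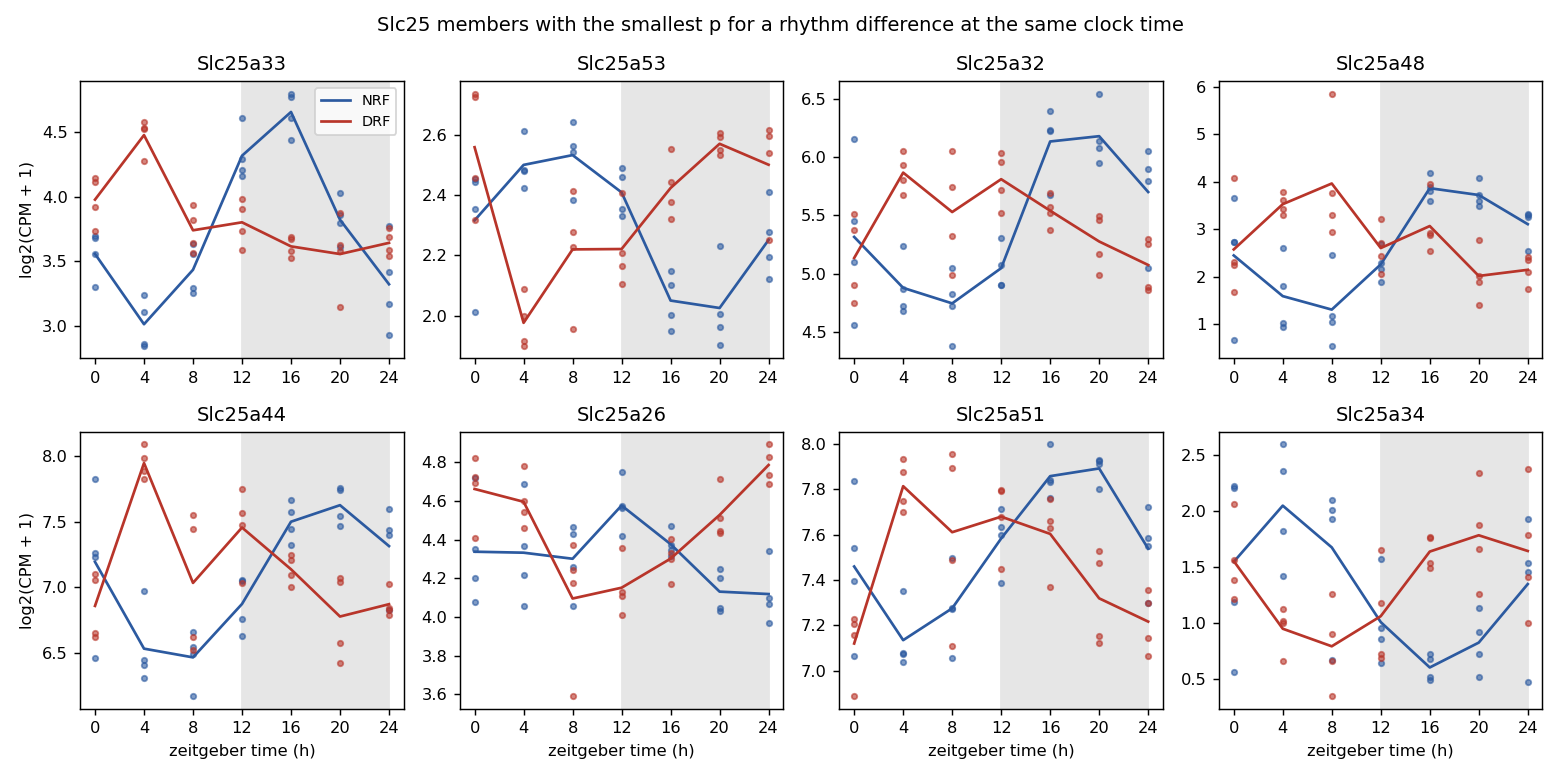
Time courses of the 8 members with the smallest p for a rhythm difference at the same clock time, in log2(CPM + 1) against zeitgeber time in hours. Points are libraries (4 per regimen and time), lines join group means, NRF is blue, DRF is red and grey is the dark phase; Slc25a33 was highest in the dark under NRF and at ZT4 under DRF.

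Slc25a33, which carries pyrimidine nucleotides for mitochondrial DNA and RNA, peaked early in the dark under NRF, with 20.7, 23.4, 26.3 and 26.8 CPM at ZT16, and was lowest at ZT4 with 6.19, 6.25, 7.60 and 8.43 CPM. Under DRF the values at ZT4 were 18.3, 21.9, 22.1 and 22.9 CPM and those at ZT16 were 10.5, 10.9, 11.7 and 11.9 CPM. The regimens did not overlap at either time, and their order was reversed. The fitted peak moved by 10.5 h (SE 0.896 h), from ZT15.4 to ZT4.95, with an adjusted p for the rhythm difference of 6.63e-12 by limma, the smallest of the family.

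Slc25a32, which brings folate (and flavin cofactors) into the matrix, held 60.97, 66.7, 69.6 and 92.5 CPM at ZT20 under NRF and 19.8, 25.4, 27.3 and 32.1 CPM at ZT8. Under DRF it held 50.0, 55.0, 60.1 and 65.6 CPM at ZT4 and 28.1, 28.4, 37.2 and 38.3 CPM at ZT24. The fitted peak moved by 8.93 h (SE 1.27 h), to ZT9.86 under DRF, and the adjusted p for the rhythm difference was 3.31e-08 by limma. Slc25a51, the NAD+ carrier, had a smaller swing, with 222, 240, 242 and 243 CPM at ZT20 and 130, 134, 134 and 162 CPM at ZT4 under NRF. Under DRF those times held 138, 141, 177 and 184 CPM and 207, 214, 234 and 243 CPM, so the regimens changed places without overlap (shift 7.75 h, SE 0.997 h, adjusted p 6.62e-07 by limma).

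Among the amino acid group, Slc25a44, which imports branched-chain amino acids, held 176, 186, 213 and 215 CPM at ZT20 and 71.0, 89.1, 92.2 and 100 CPM at ZT8 under NRF. Under DRF it was highest at ZT4, with 227, 236, 253 and 272 CPM, above every NRF library of that time (78.2, 83.7, 86.0 and 125 CPM). Its fitted peak moved by 11.2 h (SE 1.18 h), with an adjusted p of 2.59e-07 for the rhythm difference by limma. The combined test did not call its rhythm under DRF (adjusted p 0.761). Slc25a48, a carrier linked to choline, had the largest amplitude of the family under NRF, 1.37 on the log2 scale (SE 0.211). It held 11.1, 12.99, 13.8 and 17.1 CPM at ZT16 and 0.465, 1.07, 1.24 and 4.53 CPM at ZT8 under NRF. Under DRF, the ZT4 libraries held 8.80, 9.72, 11.3 and 12.7 CPM and the ZT20 libraries 1.64, 2.70, 3.02 and 5.85 CPM. The highest value of all, 57.0 CPM at ZT8 under DRF, came from replicate 1, a library of the pair, beside 6.72, 8.81 and 12.5 CPM in the other libraries of that group. The adjusted p for its rhythm difference was 6.04e-08 with the pair and 1.48e-08 without.

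Slc25a53, a carrier of unknown cargo, ran the other way, high in the light phase under NRF and in the dark phase under DRF. It held 4.22, 4.83, 4.90 and 5.24 CPM at ZT8 and 2.74, 2.89, 3.02 and 3.69 CPM at ZT20 under NRF. At ZT20 under DRF it held 4.80, 4.85, 5.03 and 5.09 CPM, above all NRF libraries of that time, and at ZT4 it held 2.73, 2.77, 3.00 and 3.26 CPM, below all NRF libraries of ZT4 (4.37, 4.59, 4.59 and 5.12 CPM). Slc25a26, which brings S-adenosylmethionine into mitochondria, was not called rhythmic under NRF by the combined test (adjusted p 0.184), whereas the limma cosine called it (adjusted p 0.0363). Under DRF it ran from 11.04, 17.1, 17.95 and 19.7 CPM at ZT8 to 24.7, 25.6, 27.4 and 28.7 CPM at ZT24, and the lowest of these libraries was again replicate 1 of the pair. Its amplitude under DRF was 0.32 (SE 0.0487) and its peak ZT23.5, and the rhythm difference had an adjusted p of 5.95e-07 by limma. Slc25a42, which carries coenzyme A, had fitted peaks at ZT10.1 under NRF and ZT19.3 under DRF (adjusted p 7.31e-05 for the rhythm difference by limma). Slc25a16, also tied to coenzyme A, had fitted peaks at ZT9.07 and ZT23.9 (adjusted p 2.23e-05 by limma). The combined test called neither under DRF (adjusted p 0.952 and 0.286). Without the pair, the DRF peaks of Slc25a26 and Slc25a16 were at ZT0.14 and ZT1.19, early in the light phase.

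**Figure D3:**
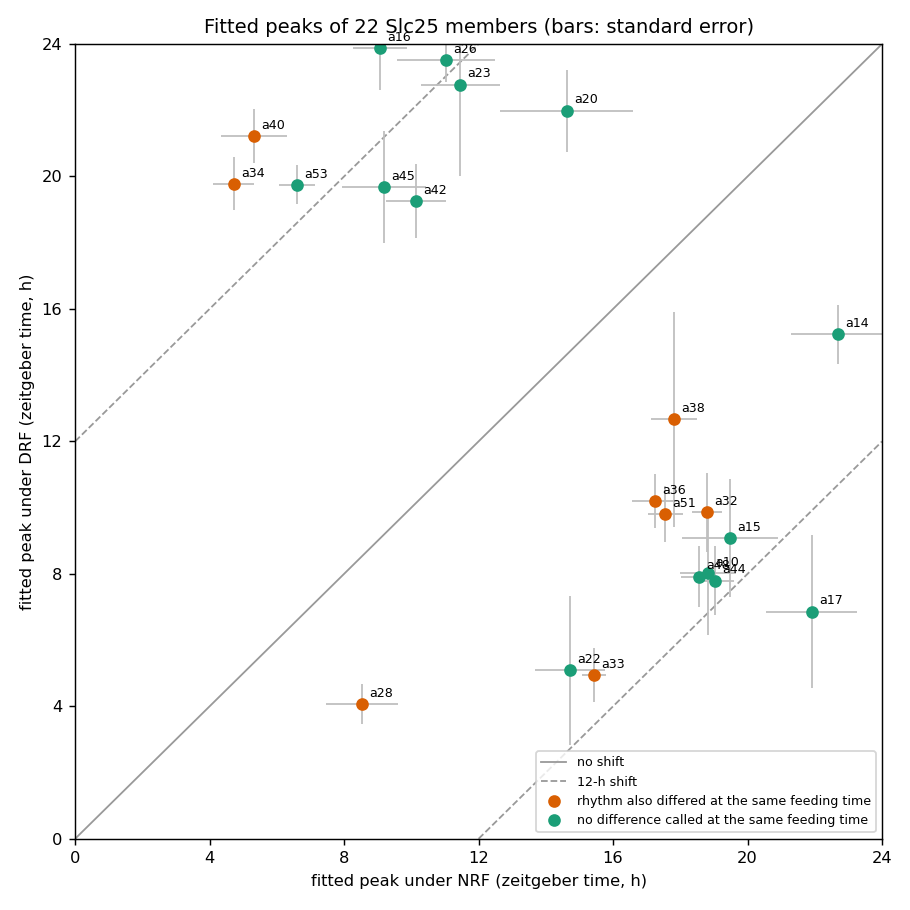
Fitted peak under DRF against fitted peak under NRF, both in zeitgeber hours, for the 22 members whose rhythm differed at the same clock time, with standard errors as bars. The solid line marks no shift and the dashed lines a shift of 12 h; most points lie toward the dashed lines, and Slc25a28 (a28), with a shift of 4.46 h, lies nearest the solid line.

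Only 3 members were called rhythmic under both regimens, which the phase comparison requires, and these calls did not hold in all fits that left out a replicate. The DRF call was lost for Slc25a36 in all 4 such fits and without the ZT24 libraries, for Slc25a53 without replicate 1, 3 or 4, and for Slc25a34 without replicate 2 or 3. The NRF call of Slc25a34 was lost without replicate 2 or 4. Slc25a53 moved by 10.9 h (SE 0.791 h, adjusted p 5.02e-17 by the CircaCompare model), from ZT6.60 to ZT19.7. Slc25a34, also a carrier of unknown cargo, moved by 8.94 h (SE 1.01 h, adjusted p 8.15e-11), from ZT4.72 to ZT19.8. By point estimate these 2 exceed 8 h, the limit at which the study calls a gene phase inverted, as did 78.4% of the 2192 genes rhythmic under both regimens. Slc25a36, the other carrier of pyrimidine nucleotides, moved by 7.05 h (SE 1.06 h, adjusted p 1.12e-07). By point estimate this is neither inverted nor phase locked (up to 4 h, 6.89% of those genes). With these standard errors, neither Slc25a36 nor Slc25a34 can be placed above or below 8 h. The shift passed its test in 3 of 3 members, beside 96.0% of those genes. Slc25a36 varied little, with 79.2, 80.1, 81.3 and 86.1 CPM at ZT16 and 61.03, 62.4, 64.3 and 68.9 CPM at ZT4 under NRF. Under DRF it held 69.2, 75.3, 75.3 and 79.3 CPM at ZT12 and 57.2, 61.1, 61.8 and 62.2 CPM at ZT24. Slc25a34 was near the lower limit of the counts, with 10 to 204 reads per library. It held 1.68, 2.53, 4.14 and 5.06 CPM at ZT4 and 0.410, 0.432, 0.605 and 0.653 CPM at ZT16 under NRF, and 0.579, 0.999, 1.03 and 1.18 CPM and 1.82, 1.91, 2.38 and 2.41 CPM at those times under DRF. The regimens thus changed places without overlap, and its rhythm differed at the same clock time with an adjusted p of 8.56e-07 by limma.

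The bases upstream of the RefSeq starts of Slc25a33, Slc25a36 and Slc25a34 are shown, whose fitted peaks moved by 10.5, 7.05 and 8.94 h. Differences between these shifts were not tested. Sequences are from RefSeq on GRCm38.p6, 5′ to 3′ on the strand of the gene, where capitals mark an E-box (CACGTG, the site of CLOCK and BMAL1) or a cyclic AMP response element (CRE, TGACGTCA). Slc25a33 covers chr4:149774268-149774517 (minus strand, positions -250 to -1 from the RefSeq start). Slc25a36 covers chr9:97111158-97111291 (minus strand, -250 to -117, ending where the annotation places transcribed bases), and Slc25a34 covers chr4:141623835-141624084 (minus strand, -250 to -1).
Slc25a33: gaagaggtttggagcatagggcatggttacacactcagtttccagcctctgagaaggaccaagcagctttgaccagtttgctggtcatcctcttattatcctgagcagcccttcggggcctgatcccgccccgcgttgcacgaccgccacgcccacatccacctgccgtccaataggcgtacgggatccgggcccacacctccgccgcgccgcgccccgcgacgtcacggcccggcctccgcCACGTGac
Slc25a36: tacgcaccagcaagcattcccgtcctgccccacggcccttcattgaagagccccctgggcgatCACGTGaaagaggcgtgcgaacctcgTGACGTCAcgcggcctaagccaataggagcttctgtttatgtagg
Slc25a34: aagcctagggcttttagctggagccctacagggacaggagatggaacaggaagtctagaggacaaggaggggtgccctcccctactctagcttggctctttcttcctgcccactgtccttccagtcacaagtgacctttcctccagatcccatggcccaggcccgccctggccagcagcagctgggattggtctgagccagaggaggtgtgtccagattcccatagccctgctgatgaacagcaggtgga

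Counted from the RefSeq start, the E-box of Slc25a33 begins at position -8 and that of Slc25a36 at -187, followed by a CRE at -161. The Slc25a34 window holds neither in these letters. The gene annotation that gave exon lengths starts Slc25a33 at chr4:149774277, which places its E-box within transcribed bases. It starts Slc25a36 at chr9:97111157, nearer to both sites than the RefSeq start. Over the 250 bases before the start, on both strands, 44 RefSeq promoters of 34 members were searched. An E-box was found in 7 of them (15.9%), beside 6.02% of all 32851 promoters, and these belonged to Slc25a13, Slc25a14, Slc25a15, Slc25a31, Slc25a33 and Slc25a36. A CRE was found in 2 (4.55%, beside 1.55%), in Slc25a25 and Slc25a36, and a D-box (TTANGTAA) in 1 (2.27%, beside 2.06%), in Slc25a25. The ERR element (TCAAGGTCA) was in none of these windows, nor were the usual letters of the ROR element and the NRF1 site, beside 0.387%, 0.177% and 0.782% of all promoters. An ETS site (CCGGAAG) was in 5 (11.4%, beside 6.91%), in Slc25a3, Slc25a4, Slc25a17, Slc25a20 and Slc25a38. Such matches describe the letters only.

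At the same feeding time, with the clock of the DRF libraries turned by 12 h, the rhythm of 10 of 39 members (25.6%) still differed, beside 24.4% of all genes. A total of 14 members (35.9%, beside 36.3% of all genes) differed at the same clock time but were not called at the same feeding time, 8 (20.5%, beside 14.9%) differed on both scales, and 15 (38.5%, beside 39.3%) were called on neither. A member that was not called is not shown to be equal. Slc25a12 and Slc25a25 differed at the same feeding time and were not called at the same clock time (2 members, beside 9.53% of all genes), and the call of Slc25a12 (adjusted p 0.0127) was lost without replicate 2 (0.3385). The cofactor and metal group held 6 of the 10. Without the pair the count was 16, beside 30.8% of all genes, with Slc25a4, Slc25a11, Slc25a13, Slc25a16, Slc25a27 and Slc25a48 gained and none of the 10 lost.

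Slc25a28, mitoferrin 2, an iron importer, had the smallest p on this scale (adjusted p 0.000218 by limma). Under NRF it ran from 27.1, 27.4, 28.01 and 31.4 CPM at ZT24 to 33.8, 36.7, 38.7 and 43.3 CPM at ZT8. Under DRF it ran from 19.2, 26.1, 28.05 and 28.9 CPM at ZT16 to 34.0, 34.0, 35.2 and 38.9 CPM at ZT4. Both regimens were therefore high in the light phase and the fitted peak moved by 4.46 h (SE 1.22 h), from ZT8.53 to ZT4.07. The combined test did not call its rhythm under NRF (adjusted p 0.0862). At ZT12, ZT16 and ZT20 all DRF libraries lay below all NRF libraries, and at ZT24 all lay above them. Slc25a25, a calcium-dependent carrier of ATP-Mg and phosphate, held 124, 134, 140 and 140 CPM at ZT4 under DRF, above every other library of either regimen, and 44.8, 52.2, 77.7 and 85.1 CPM at ZT4 under NRF. Its rhythm differed at the same feeding time with an adjusted p of 0.0287 and at the same clock time with 0.0646. Without the pair it was called on both scales (adjusted p 0.0119 and 0.0115), and without replicate 1, 2 or 3 it was not called at the same feeding time (0.118, 0.0843 and 0.118). Slc25a33 (adjusted p 0.000896), Slc25a51 (0.00210), Slc25a32 (0.00281) and Slc25a36 (0.00343) followed by limma. The shifts of Slc25a33, Slc25a51 and Slc25a32 were 7.75 to 10.5 h, together with smaller fitted amplitudes under DRF, and on this scale the test does not separate amplitude from phase. The smaller amplitude of Slc25a51 did not pass its own test (adjusted p 0.525 by the CircaCompare model). Without replicate 2, the count at the same feeding time was 5. Without replicate 1 it was 6, and Slc25a36 was not called (adjusted p 0.0713). Slc25a34 and Slc25a40, with adjusted p of 0.0361 and 0.0474, were not called in any of the 4 fits that left out a replicate.

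Amplitude was lower under DRF in 2 of 39 members (5.13%), beside 2.18% of all genes, by the CircaCompare model. For Slc25a33 the amplitude in log2(CPM + 1) was 0.75 (SE 0.0724) under NRF and 0.31 (SE 0.0751) under DRF, with an adjusted p of 0.0108. For Slc25a32 it was 0.80 (SE 0.101) and 0.32 (SE 0.0935), with an adjusted p of 0.0418 that rose to 0.0506 without the pair, where Slc25a33 alone remained (1 member) beside 3.07% of all genes. After adjustment 0 members passed without replicate 2 and 0 without replicate 4, although 2 and 4 had an unadjusted p under 0.05, and 1 passed without replicate 3. No member had a larger amplitude under DRF after adjustment (0 of 39, beside 0.706% of all genes), and 1 did at an unadjusted p under 0.05. Over the 39 members the median amplitude was 0.15 under NRF and 0.14 under DRF, beside 0.15 and 0.13 over all genes. The amplitude of Slc25a48 was 1.37 (SE 0.211) and 0.79 (SE 0.206), with an adjusted p of 0.342 for the difference. The largest amplitudes among members rhythmic under DRF were those of Slc25a34 (0.54, SE 0.123), Slc25a26 (0.32) and Slc25a53 (0.26, SE 0.0428).

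**Figure D4:**
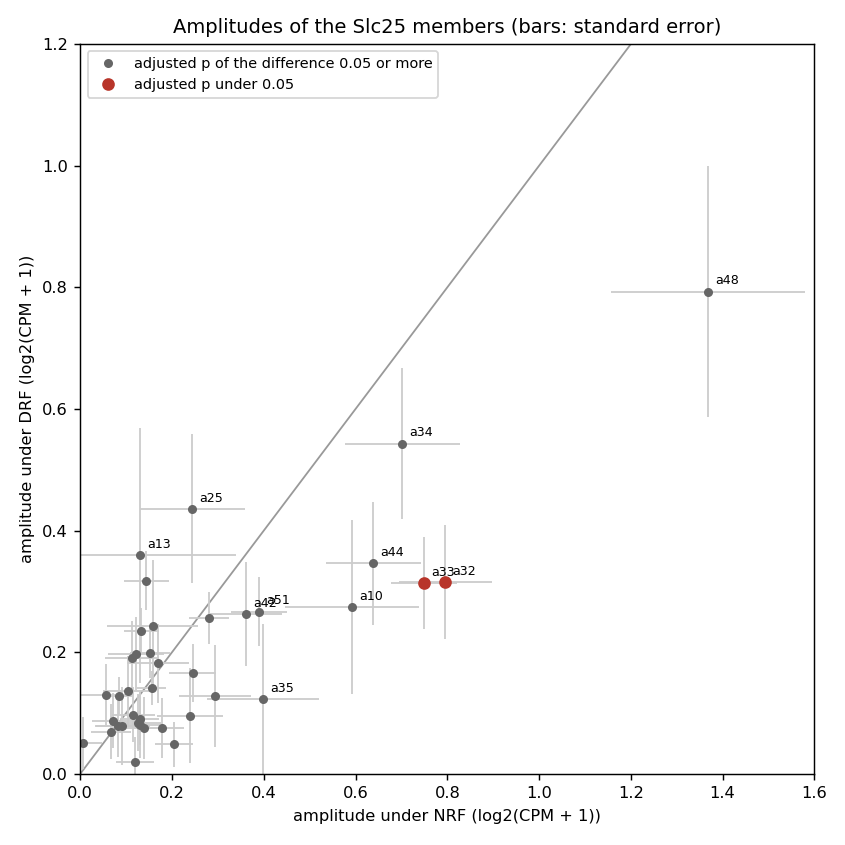
Fitted 24-h amplitude under DRF against that under NRF, in log2(CPM + 1), for the 39 tested members, with standard errors as bars and a line of equal amplitude. Slc25a32 and Slc25a33 (red) lie below the line with an adjusted p under 0.05.

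The rhythm-adjusted mean was higher under DRF in 10 of 39 members (25.6%, beside 17.3% of all genes) and lower in 5 (12.8%, beside 16.1%), by limma. The median difference over the members was 0.05 in log2(CPM + 1), beside -0.0034 over all genes. Without the pair, 14 members were higher (beside 21.7%) and 6 lower (beside 21.5%), and the 15 were all kept. The count of higher members was 6 without replicate 3 and 5 without replicate 4, and that of lower members was 3 without replicate 1 or replicate 3.

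**Figure D5:**
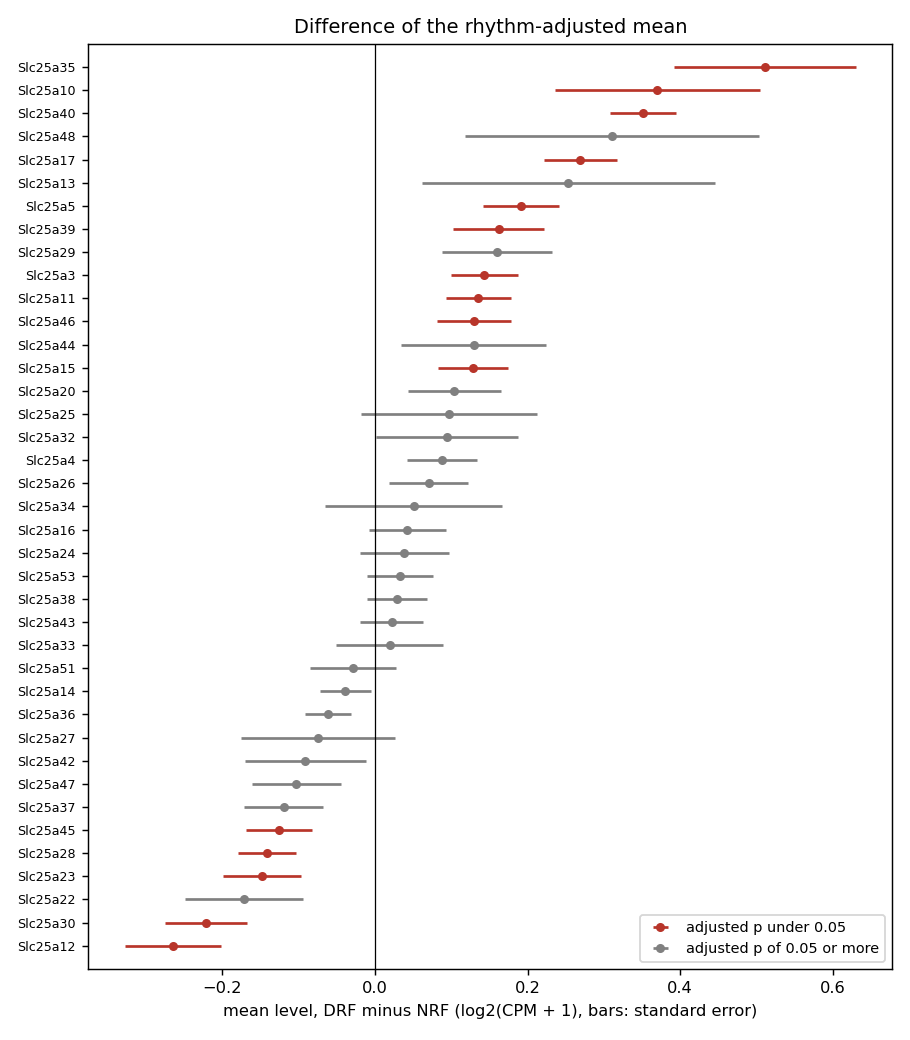
Difference of the rhythm-adjusted mean, DRF minus NRF, in log2(CPM + 1), for the 39 tested members, with standard errors as bars. Members in red have an adjusted p under 0.05, with Slc25a35 (0.51) at the top and Slc25a12 (-0.26) at the bottom.

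The highest difference was in Slc25a35, a carrier of unknown cargo. Its libraries ran from 19.5 to 103 CPM (median 55.0) under NRF and from 33.6 to 86.6 CPM (median 74.0) under DRF, a difference of 0.51 (SE 0.119, adjusted p 0.000725), or 1.43-fold. The regimens overlapped at all times but ZT16, where NRF held 33.5, 38.2, 47.9 and 55.6 CPM and DRF held 72.1, 80.7, 82.8 and 85.7 CPM. Of its 3677 exon bases, 1151 overlap exons of Rangrf on the opposite strand. Rangrf was counted at a mean of 0.179 CPM. Among other members with such overlaps, Slc25a26 shares 144 exon bases with Lrig1 (59.3 CPM) and Slc25a11 shares 189 with Rnf167 (49.1 CPM). The library kit is not stated to keep the strand, so reads of such pairs could not be told apart.

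Slc25a40, like Slc25a39 a glutathione importer, was steadier: DRF libraries lay above all NRF libraries at 5 of 7 times (ZT0, ZT4, ZT16, ZT20 and ZT24). Its levels ran from 7.07 to 12.1 CPM (median 9.49) under NRF and from 9.75 to 16.8 CPM (median 12.8) under DRF, a difference of 0.35 (SE 0.0426, adjusted p 8.06e-09), or 1.28-fold. Slc25a10 was higher by 0.37 (SE 0.135, adjusted p 0.0285), with 130 to 878 CPM (median 657) under NRF and 391.6 to 1081 CPM (median 688) under DRF. Its regimens overlapped at all times but ZT4 and ZT20. At ZT4, DRF held 777, 959, 1011 and 1081 CPM against 173, 388, 551 and 641 CPM, and at ZT20 it held 468, 501, 545 and 636 CPM against 734, 749, 804 and 825 CPM. The call for Slc25a10 was lost without replicate 1 (adjusted p 0.135), replicate 3 (0.0623), replicate 4 (0.0878) or the ZT24 libraries (0.0504).

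Slc25a17, a peroxisomal carrier of coenzyme A and related nucleotides, was higher by 0.27 (SE 0.0475, adjusted p 1.48e-05), with a higher group mean at 7 of 7 times. Slc25a5 was higher by 0.19 (SE 0.0499, adjusted p 0.00230). Its regimens were apart at ZT4 only, where DRF held 487, 520, 543 and 569 CPM against 344, 369, 387 and 394 CPM under NRF. Slc25a3 was higher by 0.14 (SE 0.0438, adjusted p 0.00900, and 0.0504 without replicate 4). Slc25a39 was higher by 0.16 (SE 0.0597, adjusted p 0.0301), a call lost in all 4 fits that left out a replicate (0.0612 to 0.0994) and without the ZT24 libraries (0.0956). Slc25a11, Slc25a15 (ornithine) and Slc25a46 (a relative on the outer membrane that acts in mitochondrial shape) were higher by 0.13 to 0.14, with adjusted p of 0.0110, 0.0249 and 0.0311. Of these calls, that of Slc25a11 was lost without replicate 4 (0.0722), that of Slc25a15 without replicates 1 and 3 (0.174 and 0.0658), and that of Slc25a46 without replicates 2, 3 and 4 (0.0791 to 0.162) and without the ZT24 libraries (0.0936). Slc25a4 was 0.09 higher (SE 0.0458, adjusted p 0.136) and Slc25a20 0.10 higher (SE 0.0607, adjusted p 0.188), which did not pass the test. Without the pair both passed, at 0.12 (adjusted p 0.0113) and 0.15 (adjusted p 0.0131).

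Of the members that were lower under DRF, Slc25a12, the aspartate and glutamate carrier of muscle and brain, fell by 0.26 (SE 0.0634, adjusted p 0.000979), from a median of 17.2 CPM (14.5 to 27.5) to 14.2 CPM (11.3 to 25.9). Its regimens were apart at ZT4 and ZT16. Slc25a30, an uncoupling protein-like carrier, fell by 0.22 (SE 0.0540, adjusted p 0.00117), with a lower group mean at all 7 times, from a median of 15.2 CPM to 13.04 CPM. Without replicate 1 the difference was -0.15, with an adjusted p of 0.0650. Slc25a23, another carrier of ATP-Mg and phosphate, fell by 0.15 (SE 0.0510, adjusted p 0.0205), and its adjusted p was 0.0967 without replicate 1 and 0.117 without replicate 3. Without the pair its difference was smaller, -0.0972, with an adjusted p of 0.0325 by limma. Slc25a28 fell by 0.14 (SE 0.0380, adjusted p 0.00299). Slc25a45 fell by 0.13 (SE 0.0432, adjusted p 0.0202), which became 0.0821 without the ZT24 libraries and passed in a single one of the 4 fits that left out a replicate.

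The pair of libraries with uterine or oviduct markers stood at the edge of their groups for many members. In 20 of the 39 tested members both held the lowest value of their group, among them Slc25a3, Slc25a4 and Slc25a5, and in 12 members DRF ZT8 replicate 1 was the lowest of all 56 libraries. In 5 members, Slc25a13, Slc25a24, Slc25a27, Slc25a37 and Slc25a48, both held the highest value of their group. Slc25a24, also a carrier of ATP-Mg and phosphate, held 49.1 and 45.1 CPM in the pair and at most 33.01 CPM in the other 54 libraries. Slc25a10 held 424 and 391.6 CPM in the pair, the lowest values of their groups. The part of the other tissue in these values was not tested.

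Other genes of mitochondrial transport were counted in lists, to be read beside the shares of all genes: 37.3% rhythmic under NRF, 20.2% under DRF, 51.2% different at the same clock time, 24.4% at the same feeding time, 17.3% higher and 16.1% lower under DRF. Of 5 family members under other symbols, 2 were rhythmic under NRF, 1 under DRF, and 4 differed at the same clock time. At the same feeding time 1 differed, Ucp2 (adjusted p 0.0305 by limma). Ucp2 had an amplitude of 0.54 under NRF and 0.25 under DRF, and the uncoupling protein Ucp1 of brown fat was at 5.73 RPKM. Of 10 genes of the machinery that imports carriers into mitochondria, 5 were rhythmic under NRF, 0 under DRF, 9 differed at the same clock time and 0 at the same feeding time. Before adjustment 4 of these passed under DRF, where the limma cosine called 7, and 2 passed at the same feeding time. Of the 7 genes for the pyruvate carrier and sideroflexins, 4 were rhythmic under NRF and 5 differed at the same clock time. Mpc1, a subunit of the mitochondrial pyruvate carrier, was higher under DRF by 0.66 (SE 0.130, adjusted p 8.77e-05). In this list 3 genes were higher and 2 lower, the sideroflexins Sfxn2 (-0.18, SE 0.0449) and Sfxn3 (-0.15, SE 0.0583). All 3 outer membrane porins were higher under DRF, by 0.10 to 0.20. Of 7 tested enzymes of the carnitine and malate-aspartate shuttles, 3 were rhythmic under NRF and 2 under DRF. Among these enzymes 3 differed at the same clock time, 0 at the same feeding time (1 before adjustment, by limma), and 3 were higher under DRF. Mdh2, mitochondrial malate dehydrogenase, was 0.35 higher (SE 0.0615) and Got2, mitochondrial aspartate aminotransferase, 0.26 higher (SE 0.0373).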

How the data were processed

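RNA of 56 VAT libraries was analysed. The submitters' processing notes name HISAT2 2.0.5, featureCounts 1.5.0-p3 and mm10. The table the authors deposited is named TPM, but its values behave as a score: log2(CPM + 1) divided by exon length and rescaled per library. Whole reads and log2(CPM + 1) were recovered from the steps between low values, and of 1262086 values up to 10000 reads, 99.9996% came within 0.02 of whole. Another 6 genes were too abundant to recover. Lengths were those of the GRCm38 annotation, and 901 came from the values (Slc25a28, Slc25a45 and Slc25a46 among them). The plan assumed linear TPM, and log2(CPM + 1) took its place in the models. A pseudocount of 1 understates the change of low genes.

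Rhythm was tested on the deposited values with JTK_CYCLE and Lomb-Scargle, joined as in MetaCycle by Fisher's method (Python 3.11.15, numpy 2.4.6, scipy 1.17.1). Differences were tested in limma 3.58.1 (R 4.3.3), and amplitude and phase by least squares with Wald tests after CircaCompare. Amplitude is the height of the fitted peak above the mean. Values in full are given for the 5 most abundant members, the 5 largest rises and falls, the 8 smallest p at the same clock time, the 5 at the same feeding time, members rhythmic under both regimens and the 3 largest amplitudes per regimen. Members, lists and this rule were chosen with earlier results of these data known. Slc25a11, Slc25a13, Slc25a14, Slc25a15, Slc25a16, Slc25a20, Slc25a22, Slc25a24, Slc25a25, Slc25a27, Slc25a37, Slc25a42, Slc25a46 and Slc25a47 were named outside the rule after their values were seen. On data simulated for 3000 genes with 200 changed, limma found 195 changed rhythms with 11 others and 179 changed means with 7 others, and the rhythm test found 167 with 3 others. The simulation drew independent normal noise around set effect sizes and held no outlying libraries such as the pair, so these rates need not hold for the real data. The feeding-time and amplitude tests were not checked on it. Alternatives changed the filter, scaling, pseudocount, threshold, test, ZT24 libraries, the pair of DRF libraries, the library with liver markers (added after seeing the data), the replicate block and single replicates.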

Additional observations from a re-analysis of the deposited data

Results flagged for a closer look

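Among 88 groups of 4 libraries, at the highest and lowest times of the members described in full, 5 held a library far from the other 3 by Dixon's criterion, which chance meets in about 1 in 20 groups. For Slc25a48 under DRF at ZT8, the highest library held 56.99 CPM and the others 6.72 to 12.5 CPM. For Slc25a40 in the same group, the highest held 10.65 CPM and the others 9.75 to 9.89 CPM. Both values came from replicate 1, a library of the pair with uterine or oviduct markers. For Slc25a45 under NRF at ZT0, replicate 4 held 9.841 CPM and the others 8.67 to 8.79 CPM. For Slc25a51 under NRF, replicate 4 at ZT20 held 222 CPM and the others 240 to 243 CPM, and replicate 2 at ZT4 held 162.3 CPM and the others 130 to 134 CPM.

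At the same feeding time, the fitted 24-h rhythm differed between the regimens for 10 members (25.6%, beside 24.4% of all genes), by the limma test. A difference in amplitude or in phase can each give such a call. Within a regimen, time from food and clock time cannot be told apart.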

How the results depend on the processing

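The count of members rhythmic under DRF, 7, moved most: it was 11 on recovered log2(CPM + 1), 17 with the 24-h cosine test in limma, 13 without the pair of DRF libraries, 4 without the ZT24 libraries, 4 at an adjusted p under 0.01, and 0 to 3 with a replicate left out (at 0, without replicate 3, 6 passed before adjustment). Under NRF the count was 10 to 12 with a replicate left out. At the same feeding time the 10 members became 16 without the pair and 5 to 10 with a replicate left out, and at the same clock time the 22 became 17 to 22. With a replicate left out, 5 to 9 members were higher and 3 to 4 lower under DRF, and 0 to 2 had a lower amplitude (1 without the pair). Fewer libraries per group enter these fits, and the cause of the other moves was not tested. For the results of single members followed under alternatives, 275 kept their side of the threshold and 18 lost the call. No mean or amplitude difference among them changed sign, and p-values of a rhythm difference have no direction. This tally leaves out other calls whose losses are given above, such as the mean of Slc25a39 and the feeding-time differences of Slc25a34 and Slc25a40.

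Of 28 pairs of libraries with the same number and time, 7 correlated above 0.1, with r from -0.27 to 0.32 and a median of 0.017. Replicate numbers were therefore not taken as pairs in the main models. Whether a number marks a batch shared across times was not tested by these correlations. The library with liver markers was left out as an alternative chosen after seeing the data, and every count of members called stayed within 1 of its value. With the replicate number as a block, 24 members differed at the same clock time, 9 at the same feeding time, 10 were higher and 6 lower. Median-ratio scaling moved the median gene by 0.005. Depth limits members with few reads, such as Slc25a34 and Slc25a43 (4 to 31 reads per library).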
